A study of Mus musculus with 8 samples.

Results

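The comparison described here is the effect of GW4064 on liver transcripts of Fxr+/+ mice. It rests on 4 of the 8 arrays of the series, 2 of Fxr+/+ mice given vehicle and 2 of Fxr+/+ mice given GW4064. Mice were male and 10 to 12 weeks old, and vehicle or 30 mg/kg of GW4064 was given by gavage 2 times a day for 7 days. Each array carried RNA pooled from the livers of 3 to 4 mice, so an array is a pool and not an animal, and the labels name neither a strain nor the vehicle. Another 4 columns carry the Fxr-/- label, of which 3 hold signals and entered the same fit. The arrays were Illumina bead arrays of 25697 probes, and values are background-subtracted signals on a linear scale.

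GW4064 is a synthetic compound that activates the farnesoid X receptor (FXR, encoded by Nr1h4), the nuclear receptor through which bile acids act on gene expression in liver and intestine. Active FXR represses bile acid synthesis and induces bile salt export, and also acts on lipid, glucose and drug metabolism. The account below follows the genes outside bile acid handling, ordered by function.

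Of 16593 genes on the array, 9766 were bright enough to be tested, meaning that a probe exceeded its array's median on at least 2 of the 7 signal arrays. Changes are differences of log2(signal + 16), a scale on which changes of dim genes come out too small. A signal under 39.5, the size of the most negative deposited value, is within the range of the background. Folds given as at least a value divide the mean of the brighter group by 39.5. They do not take in the spread between its arrays. P-values are from limma, two-sided, adjusted by the Benjamini-Hochberg method over all genes tested, and they measure the spread between pools.

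The treatment did not dominate the differences between these 4 arrays. Over all probes the Spearman correlation was 0.965 between the vehicle arrays and 0.969 between the GW4064 arrays, against 0.965 to 0.969 between arrays of different treatments. The first principal component of the 4 arrays, with 47.5% of the variance, placed vehicle replicate 2 at 27.3 and the other arrays between -18.5 and -0.64. The second, with 30.8%, placed the GW4064 arrays at 9.02 and 13.4 and the vehicle arrays at -22.1 and -0.25. The median size of the log2 gap was 0.256 between the vehicle arrays and 0.196 between the GW4064 arrays, against 0.161 for the log2 change of group means. Most hepatocyte markers tested were bright on all 4 arrays. Apoa1 was at 31650.5 and 27881 under vehicle and 31319.7 and 32516 under GW4064. Hnf4a was at 5437 and 5408 under vehicle and 4977 and 4977 under GW4064. The kept probe of Fgb was within the background, at -3.7 and -4.6 under vehicle and 4.4 and 7.3 under GW4064. The kept probe of Alb, for albumin, read 119 and 169 under vehicle and 120.3 and 126 under GW4064, far below other abundant liver transcripts, so a probe's brightness did not rank genes by their abundance.

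The targeted gene of the Fxr-/- label is Nr1h4 itself, which in Fxr+/+ liver read 3959 and 4411 under vehicle and 3328 and 3483 under GW4064. Both GW4064 arrays lay below both vehicle arrays, and the change did not pass the test (log2 change -0.29, SE 0.186, adjusted p = 1; 95% confidence interval -0.73 to 0.14). On the arrays labelled Fxr-/- its probe was also bright, at 3272 on the vehicle array and 2048 and 1852 on the GW4064 arrays. The labels do not describe the allele, and whether the probe lies outside the deleted part was not tested, so this signal does not check the Fxr-/- label.

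Across the genes tested, 2 passed the adjusted threshold of 0.05, which is 0.0205% of them (1 higher and 1 lower, 0.0102% each). At an unadjusted p under 0.05 there were 493 (5.05%), of which 233 were higher (2.39%) and 260 lower (2.66%). The GW4064 arrays lay both above or both below the vehicle arrays for 3257 genes (33.4%), 15.7% higher and 17.6% lower. These shares are the background against which each count below is read.

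One of the 2 genes that passed was Cyp2b13, a cytochrome P450 of the Cyp2b family that is known in mouse liver for higher expression in females. Its signals were 47.9 and 44.5 under vehicle and 502 and 369 under GW4064. Both GW4064 arrays were far above both vehicle arrays, 9.43 times as bright on average. The vehicle signals were only just above the background size, so the size of this rise is uncertain. The log2 change was 3.19 with an offset of 1 and 1.86 with an offset of 100. With the offset of 16 used throughout, the rise passed (log2 change 2.84, SE 0.216, adjusted p = 0.017). The other was Cyp7a1, which encodes the enzyme that limits the rate of bile acid synthesis and which read 7144 and 4934 under vehicle and 984 and 1002 under GW4064 and fell (log2 change -2.56, SE 0.245, adjusted p = 0.0447). Neither call held when any of the 4 Fxr+/+ arrays was left out: the limma adjusted p of Cyp2b13 then ranged from 0.051 to 0.269, and that of Cyp7a1 from 0.0964 to 0.491. Without either Fxr-/- GW4064 array, or in a fit of the 4 Fxr+/+ arrays alone, the adjusted p was 0.102 for Cyp2b13 and 0.148 for Cyp7a1.

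The windows around the gene starts of Cyp2b13 and Cyp2b9 are shown because these paralogs, both on chromosome 7, are nearly identical there and both were brighter under GW4064. Each runs from 250 bases before to 50 bases after the start (RefSeq, GRCm38.p6, plus strand, chr7:26061245-26061544 for Cyp2b13 and chr7:26173159-26173458 for Cyp2b9). The 2 positions at which they differ are in capitals.
Cyp2b13: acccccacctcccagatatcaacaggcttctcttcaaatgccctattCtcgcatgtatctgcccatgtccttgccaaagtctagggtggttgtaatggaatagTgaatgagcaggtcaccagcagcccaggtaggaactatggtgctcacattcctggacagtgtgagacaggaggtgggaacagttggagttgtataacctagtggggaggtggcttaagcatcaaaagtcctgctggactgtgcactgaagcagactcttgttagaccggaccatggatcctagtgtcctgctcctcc
Cyp2b9: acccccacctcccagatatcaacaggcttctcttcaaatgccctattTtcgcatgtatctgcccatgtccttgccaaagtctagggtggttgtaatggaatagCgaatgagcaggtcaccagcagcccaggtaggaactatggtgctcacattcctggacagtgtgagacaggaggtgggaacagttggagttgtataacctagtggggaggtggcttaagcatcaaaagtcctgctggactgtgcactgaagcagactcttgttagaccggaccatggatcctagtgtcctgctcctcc
Of the 300 bases, 298 (99.3%) were identical, compared position by position. Compared in the same way, the windows of Cyp2b10 and Cyp2b23 each matched that of Cyp2b13 at 76 of 300 bases (25.3%). The windows were not aligned with gaps, so this count cannot show a likeness that is shifted in position. The sequences of the array's probes were not used here, so whether the Cyp2b13 probe also binds transcripts of its paralogs was not tested.

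Other Cyp2b genes, which encode drug-metabolising P450s, were higher on both GW4064 arrays without passing. Cyp2b9, also female-predominant, read 565 and 437 under vehicle and 2573 and 1813 under GW4064 (log2 change 2.09, SE 0.331, adjusted p = 0.22). Cyp2b10, the classic target of the receptor CAR, read 3517 and 2456 under vehicle and 6146 and 6615 under GW4064 (log2 change 1.11, SE 0.229, adjusted p = 0.537). Cyp2b23 read 646 and 288 under vehicle and 1495 and 1328 under GW4064 (log2 change 1.67, SE 0.428, adjusted p = 0.713). The groups of all 3 genes did not overlap, although the vehicle arrays of Cyp2b23 differed more than 2 fold.

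**Figure D1:**
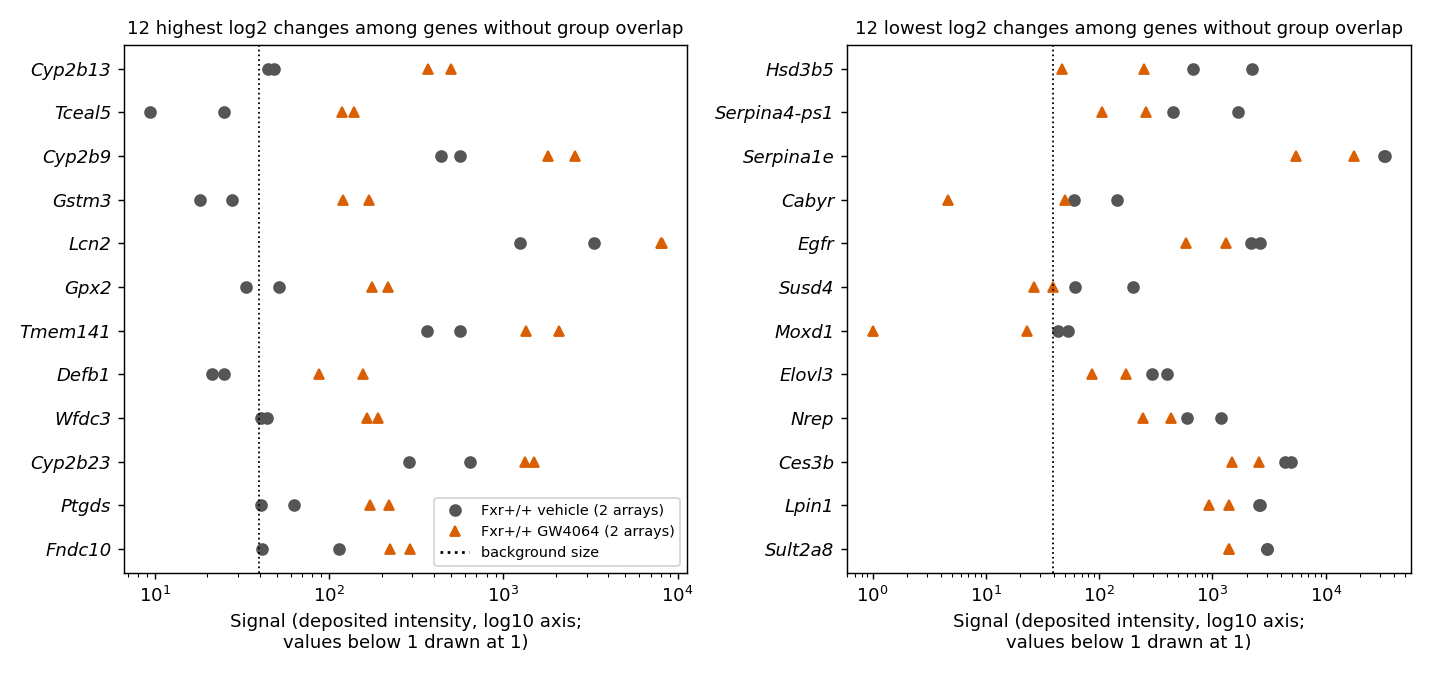
Signal on each Fxr+/+ array (log10 axis) for the 12 genes with the highest and the 12 with the lowest log2 change outside bile acid handling, among genes whose groups do not overlap. Grey circles are vehicle, orange triangles GW4064, and the dotted line is the background size of 39.5; Moxd1 at -4.7 on a GW4064 array is drawn at 1.

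The highest changes outside bile acid handling belonged to P450, antioxidant, secreted defence and less characterised genes. These genes were picked for the size of their change, so the sizes are a description. Of the 12, Cyp2b13 passed, and the other 11 had adjusted p between 0.104 and 0.713. Lcn2, the siderophore-binding protein lipocalin 2 that liver and neutrophils release in inflammation, read 3309 and 1241 under vehicle and 8114 and 8073 under GW4064, 3.56 times as bright on average (log2 change 1.99, SE 0.42, adjusted p = 0.581). Its 2 vehicle arrays differed more than its 2 GW4064 arrays, which were nearly equal. Defb1, a beta-defensin with antimicrobial activity, read 21.3 and 24.9 under vehicle and 156 and 87.3 under GW4064, at least 3.08-fold higher with the vehicle signals set to the background size (log2 change 1.77, SE 0.264, adjusted p = 0.191). Wfdc3, a protein with the whey acidic protein domain of many protease inhibitors, read 40.5 and 44.1 under vehicle and 164 and 191 under GW4064 (log2 change 1.73, SE 0.234, adjusted p = 0.135).

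Some of the highest genes were dim under vehicle. Tceal5, of a family related to transcription elongation factors, was within the background on both vehicle arrays, at 24.8 and 9.3, and read 139.5 and 118 under GW4064, at least 3.26-fold higher (log2 change 2.17, SE 0.258, adjusted p = 0.104). Outside the Fxr+/+ GW4064 arrays it exceeded the array median, 24 to 24.2, on vehicle replicate 1 alone. Tceal5 was thus tested only through the group where it was high. Ptgds, the lipocalin-type prostaglandin D synthase, read 40.7 and 62.6 under vehicle and 219.8 and 172 under GW4064 (log2 change 1.66, SE 0.336, adjusted p = 0.537). Fndc10, a fibronectin type III domain protein, read 114 and 41.1 under vehicle and 290.0 and 223 under GW4064 (log2 change 1.65, SE 0.367, adjusted p = 0.612). Tmem141, a small membrane protein, was brighter, at 364 and 566 under vehicle and 2080.3 and 1349 under GW4064 (log2 change 1.85, SE 0.349, adjusted p = 0.43).

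**Figure D2:**
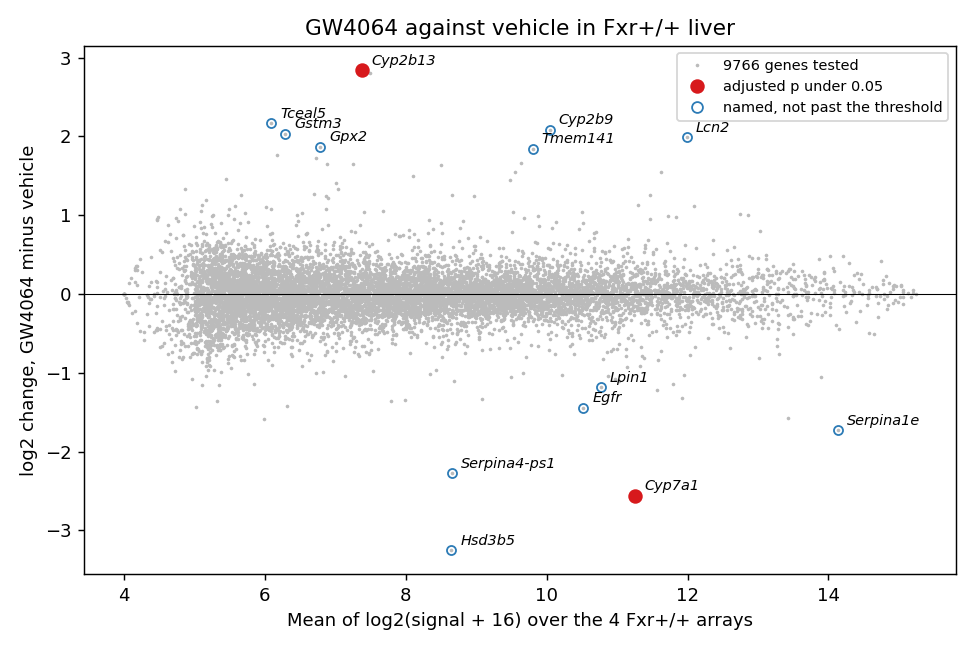
log2 change (GW4064 minus vehicle, vertical axis) against the mean log2 signal over the 4 Fxr+/+ arrays (horizontal axis) for the 9766 genes tested. Red points are the 2 genes past the threshold, Cyp2b13 at 2.84 and Cyp7a1 at -2.56, and open blue circles are other named genes, which did not pass.

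NRF2 and glutathione genes were mostly higher. NRF2 (Nfe2l2) is the transcription factor that induces glutathione synthesis, glutathione transfer and quinone reduction under electrophile or oxidant stress. Of 39 members tested, 31 had a log2 change above 0 and 19 lay above vehicle on both GW4064 arrays (48.7%, background 15.7%), with 1 below on both, and 0 passed in limma while 11 were higher at an unadjusted p under 0.05 (background 2.39%). The median log2 change was 0.22, against -0.0069 over all genes tested, and between 0.18 (without vehicle replicate 2) and 0.34 (without vehicle replicate 1) when 1 of the 4 arrays was left out. It was 0.14 with an offset of 100 and 0.13 over all kept probes, so its size moved with these choices.

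The NRF2 list members named by rule were glutathione S-transferases, which attach glutathione to electrophiles, and a glutathione peroxidase. Gstm3, a mu-class transferase, was within the background under vehicle at 27.8 and 18.1 and read 169 and 119.6 under GW4064, at least 3.66-fold higher (log2 change 2.04, SE 0.235, adjusted p = 0.104). Outside the GW4064 arrays of both labels it exceeded the array median on Fxr+/+ vehicle replicate 1 alone. Gstm3 thus passed the brightness filter only through GW4064 arrays. Gpx2, the gastrointestinal glutathione peroxidase, read 33.4 and 51.7 under vehicle and 177 and 217 under GW4064 (log2 change 1.87, SE 0.256, adjusted p = 0.135). Gsta1, an alpha-class transferase, read 2169 and 1523 under vehicle and 5179.8 and 3685 under GW4064, 2.4 times as bright on average (log2 change 1.26, SE 0.262, adjusted p = 0.55). None of the 3 had overlapping groups, and none passed.

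Further members were chosen after their values were seen, to show how the list was made up. Gsta4, which handles lipid aldehydes, read 819 and 1199 under vehicle and 2277 and 1853 under GW4064 (log2 change 1.04, SE 0.239, adjusted p = 0.622). Nqo1, the quinone reductase, read 149 and 69.3 under vehicle and 274 and 190.4 under GW4064 (log2 change 1.05, SE 0.34, adjusted p = 0.87), and its vehicle arrays differed about 2 fold, as did its group means. Cbr3, a carbonyl reductase, read 619 and 277 under vehicle and 1177 and 1154 under GW4064 (log2 change 1.45, SE 0.337, adjusted p = 0.622). Gclm, the modifier subunit of the enzyme that starts glutathione synthesis, read 2747 and 2054 under vehicle and 3187 and 2825 under GW4064 (log2 change 0.34, SE 0.232, adjusted p = 1), and Hmox1, haem oxygenase 1, had overlapping groups at 329 and 158 under vehicle and 257 and 236 under GW4064. Gst genes form families of close paralogs, and the probes' sequences were not used here, so values of single Gst genes may share signal.

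The core of the antioxidant response element was looked for in the same 300-base windows as TGACNNNGC on both strands. It was present in 7 of the 34 list members that had a window (20.6%) against 14.3% of 7947 windows of genes tested and 12.5% of all 27025 windows. The windows of Gstm3, Gpx2, Gsta1 and Nqo1 did not hold these letters, which says nothing of sites elsewhere.

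Genes of the CAR and PXR programme, nuclear receptors that induce drug metabolism, lay more often above vehicle than below. Of 22 tested, 11 lay above vehicle on both GW4064 arrays (50.0%, background 15.7%) and 5 below (22.7%, background 17.6%), with 1 past the threshold, Cyp2b13. The share below was near the background. The median was 0.25, between 0.15 (without vehicle replicate 2) and 0.36 (without GW4064 replicate 2) with 1 array left out. Besides the Cyp2b genes, Cyp2c55, chosen after its values were seen, read 564 and 319 under vehicle and 1529 and 1054 under GW4064 (log2 change 1.55, SE 0.361, adjusted p = 0.622), and Ces1e, a carboxylesterase chosen likewise, read 2197 and 3228 under vehicle and 1166 and 1410.3 under GW4064 (log2 change -1.05, SE 0.242, adjusted p = 0.622). Conjugation enzymes of the UGT and sulfotransferase families had a median of 0.013 over 19 members. The member of that list with the smallest p was Sult2a8, a hepatic sulfotransferase, at 3028 and 3045 under vehicle and 1392 and 1406 under GW4064 (log2 change -1.11, SE 0.47, adjusted p = 0.985). Its Fxr+/+ arrays were nearly equal within each group, and the SE of the shared fit also takes in the Fxr-/- GW4064 arrays, which were at 708 and 208.

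Male-predominant liver genes were lower on the GW4064 arrays. In mouse liver the pulsatile growth hormone pattern of males, acting through STAT5b, maintains these genes and restrains the female-predominant ones. Of 26 male-predominant genes tested, 25 had a log2 change below 0, and 20 lay below vehicle on both GW4064 arrays (76.9%, background 17.6%) with 0 above on both. The median log2 change was -0.74, the lowest of the lists. None passed in limma, while 13 were lower at an unadjusted p under 0.05 (background 2.66%). Averaged over the list, log2 signals were 11.14 and 11.44 under vehicle and 10.23 and 10.70 under GW4064, so the groups did not overlap and the arrays of a group also differed. With 1 array left out the median lay between -1.05 (without GW4064 replicate 2) and -0.53 (without GW4064 replicate 1).

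**Figure D3:**
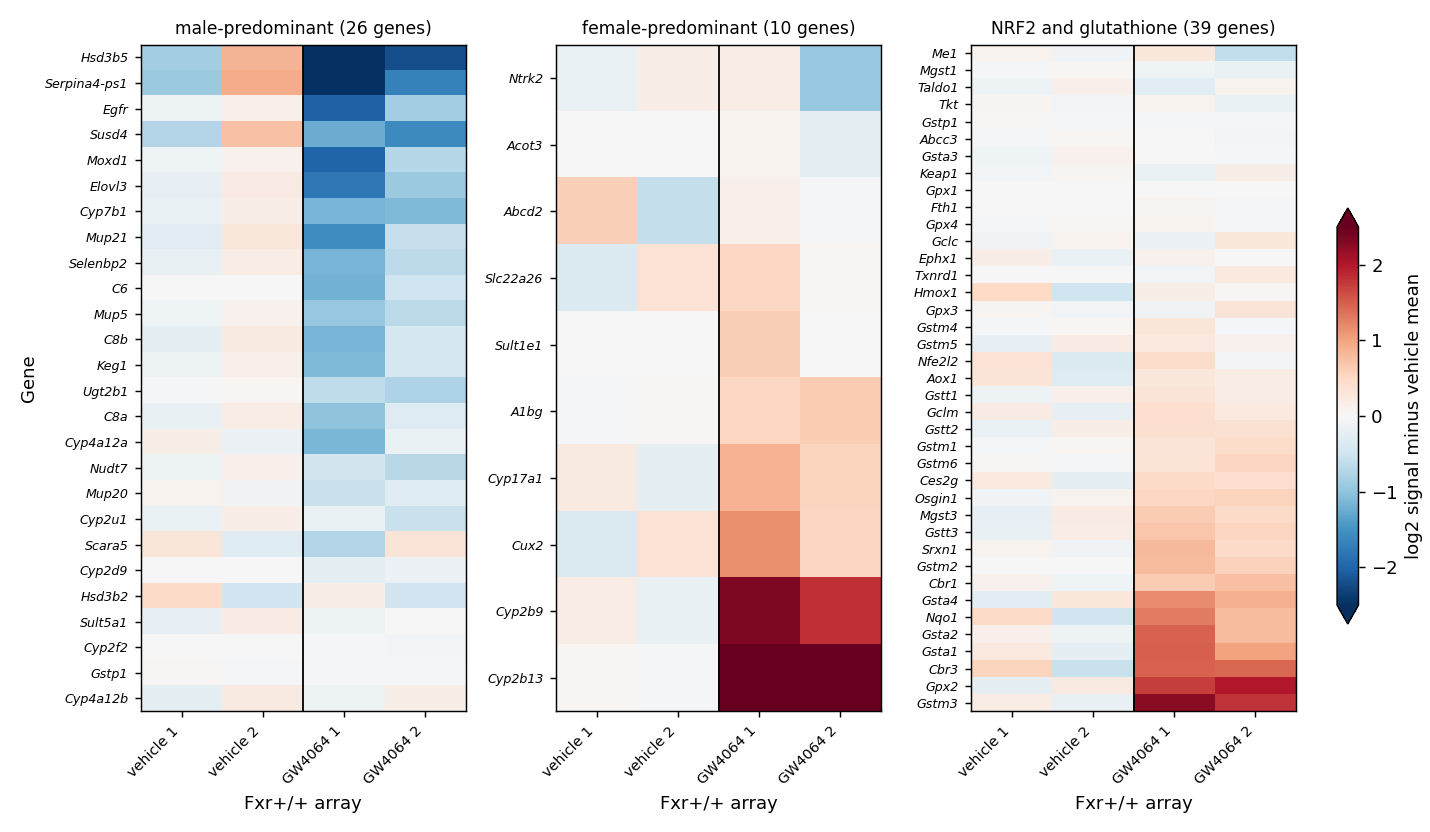
log2 signal of each member of 3 gene lists on the 4 Fxr+/+ arrays, relative to the mean of the vehicle arrays, with genes ordered by their log2 change (red higher, blue lower; values past the ends of the scale take the end colour). Most male-predominant genes are lower on both GW4064 arrays, more so on replicate 1, and the female-predominant pattern rests mainly on Cyp2b9 and Cyp2b13.

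Of the 12 lowest changes outside bile acid handling, 6 were male-predominant genes. Hsd3b5, a male-specific hepatic 3-ketosteroid reductase, had the lowest value of all genes tested. It read 668 and 2225 under vehicle and 47.3 and 251 under GW4064 (log2 change -3.25, SE 0.721, adjusted p = 0.612), and its vehicle arrays differed more than 3 fold. Serpina4-ps1, a male-biased transcript annotated as a serpin pseudogene, showed the same order of arrays at 452 and 1666 under vehicle and 106 and 260.0 under GW4064 (log2 change -2.27, SE 0.601, adjusted p = 0.723). Egfr, the epidermal growth factor receptor, read 2202 and 2625 under vehicle and 582 and 1310.3 under GW4064 (log2 change -1.44, SE 0.369, adjusted p = 0.713), with its other kept probes between -1.50 and -0.39. Elovl3, an elongase of very long chain fatty acids, read 292 and 394 under vehicle and 87.3 and 171 under GW4064 (log2 change -1.35, SE 0.38, adjusted p = 0.77).

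Dimmer male-predominant genes gave less certain sizes. Susd4, a regulator of complement, read 61.8 and 200.3 under vehicle and 38.9 and 26.8 under GW4064 (log2 change -1.42, SE 0.431, adjusted p = 0.808). Its vehicle mean was 3.32 times the background size, mainly through vehicle replicate 2. Moxd1, a copper monooxygenase homolog, read 43.7 and 53.3 under vehicle and -4.7 and 23.1 under GW4064, at least 1.23-fold lower (log2 change -1.36, SE 0.38, adjusted p = 0.769). Only its Fxr+/+ vehicle arrays exceeded the array median, so Moxd1 was tested only through the group where it was high. Cyp7b1, the oxysterol 7-alpha-hydroxylase, which is both male-predominant and a bile acid enzyme, was bright at 4675 and 5879 under vehicle and 2324 and 2419.5 under GW4064 (log2 change -1.14, SE 0.283, adjusted p = 0.658). The major urinary protein genes, which encode pheromone carriers, are near-identical copies and were read as uncertain. Among them Mup21, chosen after its values were seen, had 18201 and 26633 under vehicle and 7531 and 14829 under GW4064 (log2 change -1.06, SE 0.341, adjusted p = 0.862).

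Female-predominant genes had a median log2 change of 0.44 over 10 tested, with 5 above vehicle on both GW4064 arrays (50.0%, background 15.7%) and 0 below. This median is not a stable size: 3 of the 10, A1bg, Slc22a26 and Sult1e1, were within the background on all 4 Fxr+/+ arrays, and the median was 1.24 with an offset of 1 and 0.12 with an offset of 100. Of the other 7, which include Cyp2b13 and Cyp2b9, 4 lay above vehicle on both GW4064 arrays. Another 9 on the array stayed too dim to test. Cyp17a1, a steroid 17-alpha-hydroxylase, read 1478 and 1077 under vehicle and 2308 and 1855 under GW4064 (log2 change 0.71, SE 0.258, adjusted p = 0.972). Cux2, a female-specific repressor, was near the background at 4.4 and 17.9 under vehicle and 42.8 and 22.3 under GW4064 (log2 change 0.85, SE 0.321, adjusted p = 0.972), and another of its kept probes had a log2 change of -0.27.

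In the growth hormone and STAT5 axis itself, 10 of 14 members tested had a log2 change below 0, with 5 below vehicle on both GW4064 arrays (35.7%, background 17.6%) and 2 above. The median was -0.25, between -0.19 (without GW4064 replicate 2) and -0.15 (without vehicle replicate 2) with 1 array left out and -0.13 with the mean of each gene's probes. Socs3, a feedback inhibitor of cytokine signalling, read 312 and 223 under vehicle and 365 and 593 under GW4064 (log2 change 0.78, SE 0.334, adjusted p = 0.985). Igfbp1, a binding protein for insulin-like growth factors that insulin represses, read 123 and 70.4 under vehicle and 45.7 and 49.7 under GW4064 (log2 change -0.78, SE 0.268, adjusted p = 0.916).

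The remaining genes among the 12 lowest had other functions. Serpina1e, which encodes an alpha-1 antitrypsin isoform, was among the brightest probes under vehicle and read 33237 and 32350.1 under vehicle and 5503 and 17707 under GW4064 (log2 change -1.73, SE 0.469, adjusted p = 0.749). It has near-identical paralogs, so this value may mix them. Its GW4064 arrays differed more than 3 fold while its vehicle arrays were nearly equal. Nrep, a neuronal regeneration-related protein, read 591 and 1191 under vehicle and 243 and 433 under GW4064 (log2 change -1.33, SE 0.383, adjusted p = 0.783). Ces3b, a liver carboxylesterase, read 4381 and 4882 under vehicle and 1501 and 2595 under GW4064 (log2 change -1.22, SE 0.527, adjusted p = 0.985). Cabyr, a calcium-binding protein known from sperm, read 59.7 and 145 under vehicle and 4.6 and 49.9 under GW4064 (log2 change -1.58, SE 0.545, adjusted p = 0.919), with 1 GW4064 array within the background and its other kept probe at 0.072.

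Cholesterol synthesis genes were lower without exception in direction. SREBP2 drives these enzymes and the LDL receptor when sterols are low. All 18 members tested had a log2 change below 0, against 51.3% of all genes. Of these, 12 lay below vehicle on both GW4064 arrays (66.7%, background 17.6%). In limma 0 passed the threshold and 7 were lower at an unadjusted p under 0.05 (background 2.66%). The median was -0.38, between -0.53 (without GW4064 replicate 1) and -0.32 (without GW4064 replicate 2) with 1 array left out. Idi1, the isomerase of isopentenyl diphosphate, read 162 and 212 under vehicle and 67.0 and 100.2 under GW4064 (log2 change -1.03, SE 0.236, adjusted p = 0.622). Msmo1, the sterol-C4 methyl oxidase, read 2476 and 2714 under vehicle and 1849 and 1496 under GW4064 (log2 change -0.64, SE 0.197, adjusted p = 0.808), and Tm7sf2, a sterol reductase, read 365 and 377 under vehicle and 260.2 and 215 under GW4064 (log2 change -0.61, SE 0.189, adjusted p = 0.808). In all 3 both GW4064 arrays lay below both vehicle arrays.

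Fat synthesis had no common direction, with a median of -0.04 over 22 tested. On both arrays 2 lay above (background 15.7%) and 4 below (background 17.6%). Lpin1, the phosphatidate phosphatase of triglyceride synthesis, read 2634 and 2599 under vehicle and 939.9 and 1387 under GW4064 (log2 change -1.18, SE 0.258, adjusted p = 0.612), 0.445 times its vehicle level on average. Thrsp, the lipogenic Spot 14 protein, had the opposite order at 6836 and 5842 under vehicle and 12833 and 9384 under GW4064 (log2 change 0.79, SE 0.243, adjusted p = 0.808). Without GW4064 replicate 1 the median of the list was -0.25 and without GW4064 replicate 2 it was 0.13, so its direction turned on these arrays.

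Lipid droplet genes were described by a few members. Fitm1 and Fitm2 help bud lipid droplets from the endoplasmic reticulum. Fitm1 read 211 and 184 under vehicle and 84.7 and 136 under GW4064 (log2 change -0.78, SE 0.238, adjusted p = 0.808) and Fitm2 2915 and 2914 under vehicle and 1803 and 2091 under GW4064 (log2 change -0.58, SE 0.239, adjusted p = 0.982), while Plin3, a droplet coat protein, read 392 and 404 under vehicle and 603 and 553 under GW4064 (log2 change 0.52, SE 0.198, adjusted p = 0.972). The list had 2 members above (background 15.7%) and 6 below (background 17.6%) on both arrays of 17 tested. Its median was -0.14, between -0.30 (without vehicle replicate 2) and -0.069 (without GW4064 replicate 1) with 1 array left out.

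Fatty acid oxidation and PPAR-alpha target genes had small values, mostly below 0. Of 30 tested, 27 had a log2 change below 0 and 10 lay below vehicle on both arrays (33.3%, background 17.6%), with 0 above. The median was -0.18, between -0.26 (without vehicle replicate 2) and -0.12 (without vehicle replicate 1) with 1 array left out and -0.094 over all kept probes. Acot1, a cytosolic acyl-CoA thioesterase, read 2789.5 and 3403 under vehicle and 1219 and 2152 under GW4064 (log2 change -0.92, SE 0.312, adjusted p = 0.898), and its other kept probe had a log2 change of -0.53. Acaa1b, a peroxisomal thiolase, read 27881 and 30270.0 under vehicle and 20936 and 20192 under GW4064 (log2 change -0.50, SE 0.184, adjusted p = 0.972), a change of less than 1 on the log2 scale with arrays of a group close together.

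Glucose and amino acid genes were mixed. Of 22 glucose genes tested, 1 lay above and 8 below on both arrays (36.4%, background 17.6%), with a median of -0.014. Pck1, the gluconeogenic enzyme PEPCK, read 517 and 486 under vehicle and 289 and 360.5 under GW4064 (log2 change -0.61, SE 0.213, adjusted p = 0.926), and Got1, the cytosolic aspartate transaminase, read 868 and 902 under vehicle and 565 and 527 under GW4064 (log2 change -0.68, SE 0.194, adjusted p = 0.776). Neither had overlapping groups, and neither passed. Among 29 genes of amino acid and one-carbon metabolism the median was 0.00032. Gldc, the glycine decarboxylase, read 4682 and 5247 under vehicle and 7936 and 6776 under GW4064 (log2 change 0.56, SE 0.191, adjusted p = 0.898), Oat, ornithine aminotransferase, read 12385 and 14017 under vehicle and 8982 and 6689 under GW4064 (log2 change -0.76, SE 0.279, adjusted p = 0.972), and Asns, asparagine synthetase, read 203 and 113 under vehicle and 91.5 and 65.6 under GW4064 (log2 change -0.85, SE 0.285, adjusted p = 0.896).

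Acute phase genes were higher in part. The liver secretes these proteins in response to inflammatory cytokines. Of 28 tested, 12 lay above vehicle on both GW4064 arrays (42.9%, background 15.7%) and 3 below. The median was 0.17, between 0.10 (without vehicle replicate 1) and 0.24 (without GW4064 replicate 1) with 1 array left out. However, 2 members were within the background on all 4 arrays. Of the other 26, 10 lay above on both and 3 below, with a median of 0.13. Besides Lcn2, Hamp2, a hepcidin paralog, read 4486 and 6112 under vehicle and 14276 and 7741 under GW4064 (log2 change 1.00, SE 0.311, adjusted p = 0.808), and Saa2, a serum amyloid A protein, read 211 and 206 under vehicle and 302 and 327 under GW4064 (log2 change 0.56, SE 0.185, adjusted p = 0.89). The Saa genes are close paralogs, and Saa1, chosen after its values were seen, read 152 and 189 under vehicle and 266 and 324 under GW4064 (log2 change 0.74, SE 0.267, adjusted p = 0.972).

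Neutrophil markers are given beside these genes. Over 12 tested, 11 had a log2 change above 0, 4 of them above vehicle on both GW4064 arrays (background 15.7%). The summed signal of the list was 7125 and 2861 under vehicle and 11789 and 11868 under GW4064, with Lcn2 the largest part. Of the other markers, S100a8 read 1822 and 597 under vehicle and 1887 and 1835 under GW4064, with vehicle replicate 2 apart from the other arrays, and Elane read 35.1 and 22.4 under vehicle and 40.7 and 51.7 under GW4064. The defining markers Itgam, Cxcr2 and Mmp8 had signals below 0 on all 4 arrays. The list's median was 0.19 with an offset of 100, and without vehicle replicate 2 it turned from 0.41 to -0.069, while the log2 change of Lcn2 was 1.29. The part of neutrophils in the value of Lcn2 was not tested, and in whole liver more cells of a type and more RNA per cell cannot be told apart.

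Complement and coagulation genes, most of them secreted by hepatocytes, were lower in part. The list also holds the C1q genes, which are on the macrophage marker list as well. Of 35 tested, 13 lay below vehicle on both arrays (37.1%, background 17.6%) and 1 above, with a median of -0.11, between -0.22 (without GW4064 replicate 2) and -0.084 (without GW4064 replicate 1) with 1 array left out. F11, coagulation factor XI, read 2971 and 2825 under vehicle and 1194 and 1564 under GW4064 (log2 change -1.08, SE 0.25, adjusted p = 0.622). C6 and C8b, components of the membrane attack complex that are also male-predominant, read 4079.7 and 4082 under vehicle and 1794 and 2868 under GW4064 (log2 change -0.84, SE 0.248, adjusted p = 0.791) and 3006 and 4095 under vehicle and 1553 and 2571 under GW4064 (log2 change -0.81, SE 0.282, adjusted p = 0.941). In both genes GW4064 replicate 1 was the lowest array, as it was for the mean of the male-predominant list.

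Lipoprotein genes had no common direction, with a median of 0.018 over 24 tested. Apoc2, the activator of lipoprotein lipase and a known FXR target, read 1150.4 and 1088 under vehicle and 1733 and 1464 under GW4064 (log2 change 0.50, SE 0.216, adjusted p = 0.985). Scarb1, the HDL receptor, read 90.2 and 79.1 under vehicle and 144 and 134 under GW4064 (log2 change 0.62, SE 0.184, adjusted p = 0.791). Pltp, the phospholipid transfer protein and also an FXR target, had the opposite order at 1115 and 1212 under vehicle and 583 and 908 under GW4064 (log2 change -0.66, SE 0.25, adjusted p = 0.972). Other FXR targets outside bile acid handling had a median of 0.021 over 19 tested, and the probe of Nr0b2, which encodes the FXR-induced repressor SHP, had signals below 0 on all 4 arrays, from -25.3 to -9.2.

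Cell cycle genes were higher by small amounts from low levels. Of 33 tested, 30 had a log2 change above 0 and 18 lay above vehicle on both GW4064 arrays (54.5%, background 15.7%), with 2 below. None passed in limma, while an unadjusted p under 0.05 was reached by 6 higher (background 2.39%) and 2 lower (background 2.66%) members. Stmn1, a microtubule regulator of dividing cells, was within the background under vehicle at 37.8 and 35.3 and read 69.6 and 78.3 under GW4064, at least 1.87-fold higher (log2 change 0.77, SE 0.20, adjusted p = 0.713). Aurka, a mitotic kinase, was also within the background under vehicle at 37.2 and 34.3 and read 84.4 and 61.1 under GW4064, at least 1.84-fold higher (log2 change 0.77, SE 0.221, adjusted p = 0.783). Cdc20, an activator of the anaphase-promoting complex, read 156 and 151 under vehicle and 331 and 197 under GW4064 (log2 change 0.69, SE 0.259, adjusted p = 0.972), with other probes from 0.066 to 0.74. Vehicle replicate 2 was the lowest array for this list: mean log2 signals were 7.71 and 7.38 under vehicle and 7.95 and 7.84 under GW4064, and the median of 0.34 lay between 0.17 (without vehicle replicate 2) and 0.61 (without vehicle replicate 1) with 1 array left out.

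Markers of immune cells are given beside the cell cycle genes. Lymphocyte markers had a median of 0.47 over 11 tested with 4 above on both arrays (background 15.7%). The median lay between 0.20 (without vehicle replicate 2) and 0.55 (without GW4064 replicate 1) with 1 array left out. With an offset of 100 it was 0.17. The summed signal was 1623 and 1190.2 under vehicle and 1761 and 2108 under GW4064. Cd4, Cd8a, Cd79a and Gzmb, markers of T cells, B cells and cytotoxic cells, had signals of at most 5.0 on all 4 arrays. Macrophage markers had a median of 0.25 over 15 tested with 1 above on both arrays (6.67%, background 15.7%), between -0.052 (without GW4064 replicate 2) and 0.59 (without vehicle replicate 1) with 1 array left out, and -0.025 without vehicle replicate 2, so their direction rested on 2 arrays. Their part in the cell cycle values was not tested.

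Stellate cell and matrix markers were lower, with 8 of 20 below vehicle on both arrays (40.0%, background 17.6%) and 0 above, a median of -0.28, between -0.49 (without GW4064 replicate 2) and -0.087 (without GW4064 replicate 1) with 1 array left out, and a summed signal of 13269 and 12642 under vehicle and 9817 and 11738 under GW4064. Endothelial markers had 7 of 18 below on both arrays (38.9%) and a median of -0.17, between -0.30 (without vehicle replicate 2) and -0.13 (without vehicle replicate 1) with 1 array left out. Pancreatic acinar and adipose or muscle markers were mostly too dim to test, with 4 of 12 and 2 of 13 on the array tested, and Adipoq, Ckm and Prss2 were at 19.0 or less on every array. Bile duct and red blood cell markers had medians of 0.027 and 0.22 over 8 tested each, and each median turned below 0 with 1 array left out, to -0.018 without vehicle replicate 1 and -0.11 without GW4064 replicate 2.

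**Figure D4:**
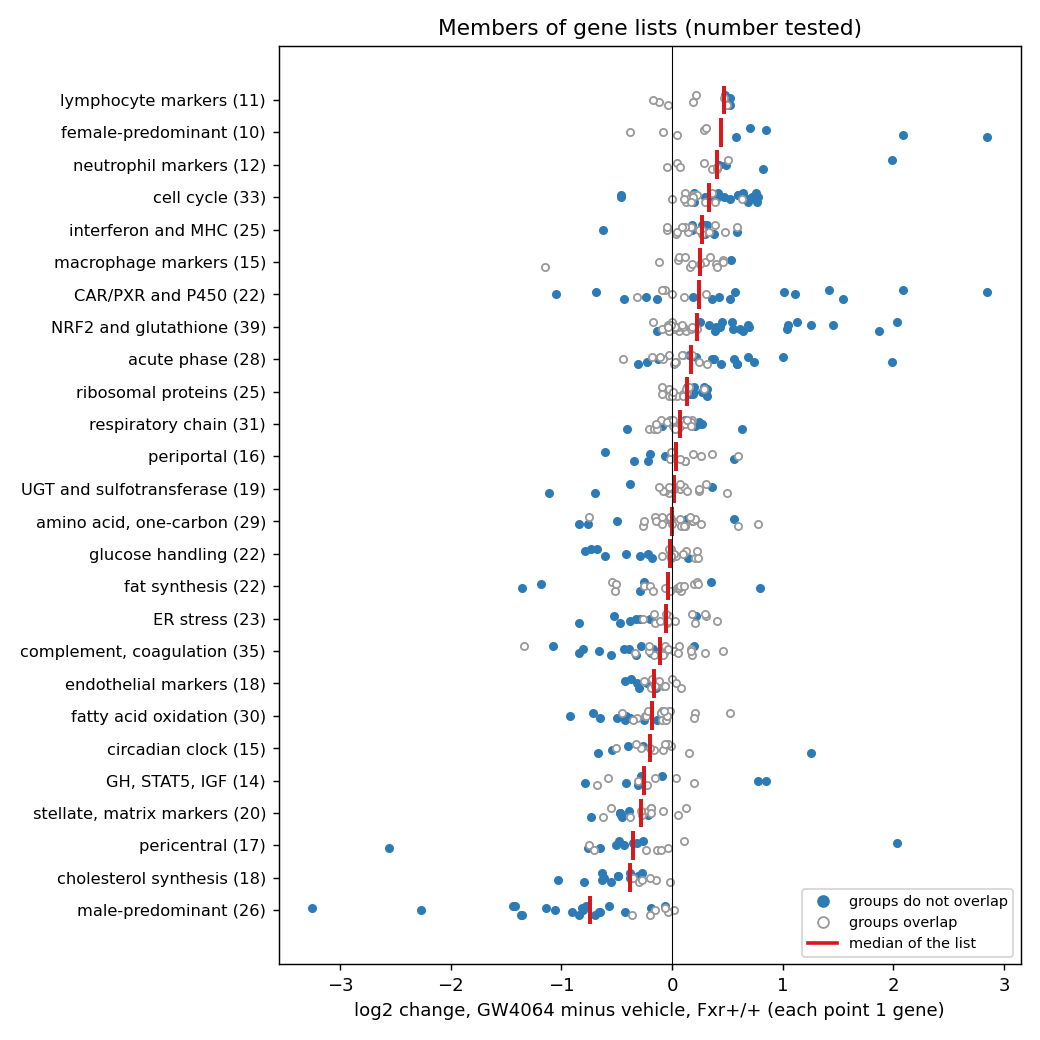
log2 change in Fxr+/+ liver (horizontal axis) of each tested member of 26 gene lists, with the number tested in brackets. Filled blue points are genes whose groups do not overlap, open points genes whose groups overlap, and red bars are list medians, from -0.74 for male-predominant genes to 0.47 for lymphocyte markers.

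Smaller shifts ran through the remaining lists. Ribosomal protein genes had 10 of 25 above on both arrays (40.0%, background 15.7%) and 0 below with a median of 0.13, which lay between 0.13 (without GW4064 replicate 1) and 0.14 (without vehicle replicate 2) when 1 array was left out. Respiratory chain genes had a median of 0.069 over 31 tested, between 0.022 (without GW4064 replicate 1) and 0.12 (without GW4064 replicate 2) with 1 array left out. Cox7a1, the heart and muscle form of a cytochrome c oxidase subunit, read 114 and 151 under vehicle and 204 and 222 under GW4064 (log2 change 0.63, SE 0.243, adjusted p = 0.972). Interferon and MHC genes had 9 of 25 above on both arrays (background 15.7%). Their median was 0.27, between 0.11 (without GW4064 replicate 1) and 0.35 (without vehicle replicate 1) with 1 array left out. Rsad2, the antiviral protein viperin, read 908 and 757 under vehicle and 1476 and 1062 under GW4064 (log2 change 0.59, SE 0.239, adjusted p = 0.982), and H2-Q10, a liver-secreted class I molecule, read 116 and 179.8 under vehicle and 106 and 73.3 under GW4064 (log2 change -0.62, SE 0.262, adjusted p = 0.985).

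Clock genes had a median of -0.20 over 15 tested, with 1 above (background 15.7%) and 4 below (background 17.6%) on both arrays. With 1 array left out the median lay between -0.29 (without GW4064 replicate 2) and -0.10 (without vehicle replicate 2). The activator Arntl (BMAL1) was within the background under vehicle on both arrays at 22.6 and 12.2 and read 91.0 and 41.7 under GW4064, at least 1.68-fold higher (log2 change 1.25, SE 0.366, adjusted p = 0.791). The output and repressor genes Dbp and Per3, which cycle opposite to Arntl in liver, had the opposite order. Dbp read 5541 and 5566 under vehicle and 3223 and 3749 under GW4064 (log2 change -0.67, SE 0.25, adjusted p = 0.972) and Per3 118 and 126 under vehicle and 83.4 and 74.4 under GW4064 (log2 change -0.54, SE 0.231, adjusted p = 0.985). The labels give no hour of collection, so its part in these values was not tested.

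Among liver zone markers, pericentral genes, of the hepatocytes around the central vein, had 9 of 17 below on both arrays (52.9%, background 17.6%). Their median was -0.36, with 1 past the threshold, Cyp7a1. Gstm3, given above with the NRF2 genes, is also on this list and lay above on both arrays (log2 change 2.04). The pericentral markers Glul and Cyp2e1 had overlapping groups. Glul read 150 and 310 under vehicle and 94.3 and 157 under GW4064. Cyp2e1 read 36248 and 30832 under vehicle and 29793 and 32797 under GW4064. Periportal genes had a median of 0.036 over 16. Tbx3, a transcription factor of pericentral hepatocytes, read 605 and 545 under vehicle and 318 and 404 under GW4064 (log2 change -0.66, SE 0.202, adjusted p = 0.808), with its other kept probes up to -0.40. Of the transcription regulators, Foxa3, a forkhead factor of hepatocytes, had the smallest p, at 5742 and 5578 under vehicle and 2582 and 2957 under GW4064 (log2 change -1.03, SE 0.244, adjusted p = 0.629). Each pair of its arrays was close, and the change did not pass. Lists of ER stress, heat shock and proteasome, haem and iron, and kynurenine and NAD genes had medians of -0.059, 0.022, 0.021 and -0.15, and no member of the last 3 reached an unadjusted p under 0.05. The ER stress median was -0.25 without vehicle replicate 2.

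For context, the bile acid genes with the smallest p besides Cyp7a1 were Slc51b, which forms part of the exporter that moves bile acids across the basolateral membrane, at 50.8 and 53.7 under vehicle and 719 and 295 under GW4064 (log2 change 2.81, SE 0.367, adjusted p = 0.133), Csad, a taurine synthesis enzyme, at 6738 and 5478 under vehicle and 2673 and 2214 under GW4064 (log2 change -1.31, SE 0.223, adjusted p = 0.294), and Cyp8b1, the sterol 12-alpha-hydroxylase, at 17829 and 20338 under vehicle and 6484 and 6307 under GW4064 (log2 change -1.57, SE 0.363, adjusted p = 0.622). The log2 changes of Cyp2b13 and Hsd3b5 were at least as large in size as that of Slc51b, as the plot of change against level shows.

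The same genes were read on the arrays labelled Fxr-/-, which share no array with the Fxr+/+ comparison but hold 1 vehicle array and 2 GW4064 arrays. The difference between the effects under the genotype labels passed for 0 genes in limma (600 at an unadjusted p under 0.05, 6.14%). Of the 12 highest genes, 8 were also above the vehicle array on both GW4064 arrays labelled Fxr-/-, 3 were below on both and 1 was mixed. With a single vehicle array such an order is common: 35.1% of all genes tested were above on both and 33.0% below on both. Gstm3 read 0.9 on the vehicle array and 195 and 171 on the GW4064 arrays, Lcn2 1562 on the vehicle array and 5629 and 4052 on the GW4064 arrays and Tmem141 533 on the vehicle array and 2056 and 3536 on the GW4064 arrays, the same order as in Fxr+/+. Wfdc3 was brighter throughout at 573 on the vehicle array and 2527 and 3713 on the GW4064 arrays. Cyp7a1 and the bile acid genes given for context also kept their order. Cyp7a1 read 3846 on the vehicle array and 805 and 613 on the GW4064 arrays, and Slc51b 30.8 against 881 and 957. Cyp8b1 read 3164 against 92.4 and 30.6, and Csad 2971 against 1492 and 1895. Their log2 changes were -2.43, 4.32, -5.48 and -0.82, beside -2.56, 2.81, -1.57 and -1.31 in Fxr+/+.

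Of the Cyp2b genes, 3 had another order under that label, while Cyp2b10 kept its order at 1643 on the vehicle array and 2161 and 1864 on the GW4064 arrays. Cyp2b23 was lower on both GW4064 arrays, at 582 on the vehicle array and 517 and 249 on the GW4064 arrays. Cyp2b13 read 102 on the vehicle array and 100.2 and 85.2 on the GW4064 arrays, with a difference between the effects of 2.97, SE 0.341, unadjusted p = 3.39e-05, adjusted p = 0.305. Cyp2b9 read 2258 on the vehicle array and 839 and 443 on the GW4064 arrays, a difference of 3.94, SE 0.524, unadjusted p = 9.03e-05, adjusted p = 0.305. Tceal5 stayed within the background at -13.1 on the vehicle array and -14.8 and 1.3 on the GW4064 arrays. Of the male-predominant genes, Hsd3b5 and Serpina4-ps1 were already low under vehicle, at 27.8 on the vehicle array and 29.0 and 18.9 on the GW4064 arrays for Hsd3b5 and 58.8 on the vehicle array and 66.5 and 44.6 on the GW4064 arrays for Serpina4-ps1. The male-predominant list had a median log2 change of -0.11 under the Fxr-/- label beside -0.74 in Fxr+/+, NRF2 and glutathione genes 0.22 beside 0.22, cholesterol synthesis -0.35 beside -0.38 and cell cycle genes -0.086 beside 0.34. These differences between lists were not tested.

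**Figure D5:**
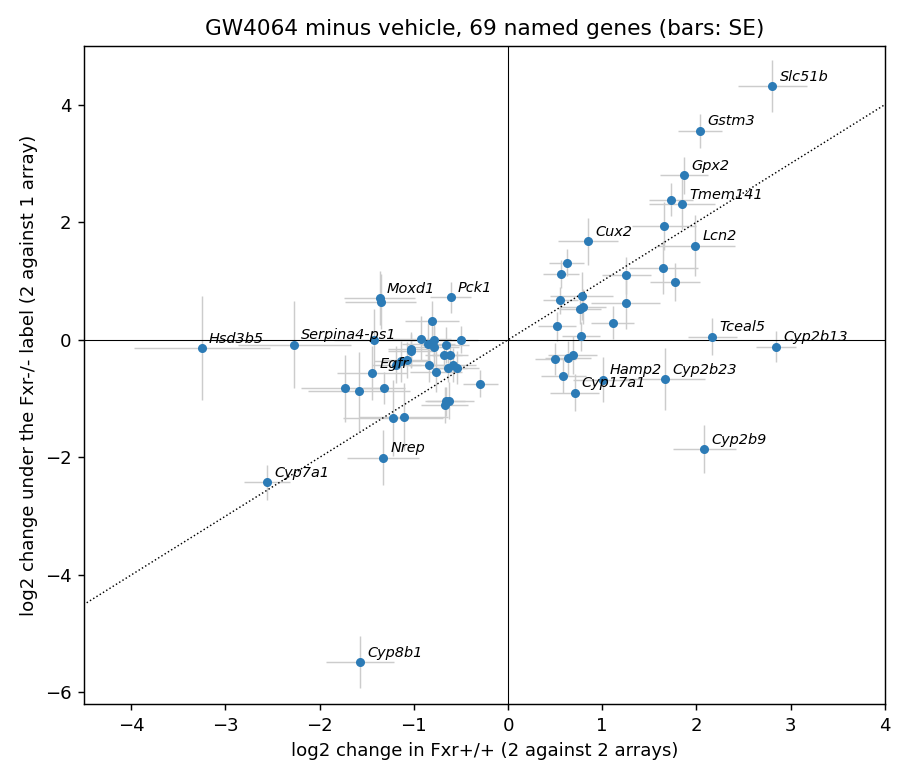
log2 change by GW4064 in Fxr+/+ (horizontal axis) against that on arrays labelled Fxr-/- (vertical axis) for the 69 named genes, with bars of 1 SE from the shared fit and a dotted line of equal change. Gstm3, Gpx2 and Lcn2 lie above 0 under both labels, Cyp2b13 and Tceal5 near 0 under the Fxr-/- label, and Cyp2b9 below 0 there.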

How the data were processed

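The authors deposited 1 table of intensity values on a linear scale for 25697 probes, from biotin-labelled cRNA on Illumina bead arrays, per the labels' protocols. The 7 signal columns were already background-subtracted (31.5% to 31.6% of values below 0, lowest -39.5) and quantile normalized (sorted values differ by at most 0.5), as read from the deposited values. The software was not given in the sources used here. The deposited column of Fxr-/- vehicle replicate 2 holds other values of unknown unit, whole numbers from 14 to 139, and was not used.

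Probe names came from the platform annotation, checked by Entrez identifier against RefSeq genes (GRCm38.p6): 23978 had 1 symbol, 0 several and 1719 none. Signals were converted as log2(max(signal, 0) + 16). Of 14041 probes above the array median on at least 2 arrays, 13218 had a symbol, and each gene was tested through its brightest such probe. A cell-means model of the 7 arrays was fitted with limma 3.58.1 (R 4.3.3; 3 residual and 4.56 prior degrees of freedom), tested on simulated data. No replicate block was used. Figures used matplotlib 3.10.9.

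The members and gene lists were chosen with earlier results of these data known. Named genes are Nr1h4, genes past the threshold, the 12 highest and 12 lowest changes without group overlap outside bile acid handling, up to 3 members per list with an unadjusted p under 0.05 and no overlap, and 4 bile acid genes. The number of arrays limits the precision. Alternatives were other normalizations, offsets, filters and probe rules, other variance models, fewer arrays and a replicate block.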

Additional observations from a re-analysis of the deposited data

Results flagged for a closer look

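In 12 named genes both GW4064 arrays lay on 1 side of vehicle in Fxr+/+ and on the other side under the Fxr-/- label. Each also had an unadjusted limma p under 0.05 for the difference between the effects, GW4064 minus vehicle in Fxr+/+ less the same under the Fxr-/- label. The rule asks for an order of arrays only, so the move under a label can be small. None passed after adjustment over all genes (adjusted p between 0.305 and 0.78), and the Fxr-/- side rests on 1 vehicle array. The same held for 293 of all 9766 genes tested (3.0%). Most named genes were chosen by their Fxr+/+ change, which enters the difference, so the 12 of 69 is a description.

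Genes higher under GW4064 in Fxr+/+ and lower under the Fxr-/- label had log2 differences of 3.94 for Cyp2b9, 2.97 for Cyp2b13, 2.34 for Cyp2b23, 1.69 for Hamp2, 1.60 for the steroid hydroxylase Cyp17a1, 1.20 for Rsad2, 0.95 for Cox7a1 and 0.83 for Apoc2. On the Fxr-/- arrays Hamp2 read 27714 on the vehicle array and 16486 and 18088 on the GW4064 arrays, and Cyp17a1 7428 on the vehicle array and 4709.5 and 3364 on the GW4064 arrays. Cyp2b23 read 582 on the vehicle array and 517 and 249 on the GW4064 arrays. Cyp2b13 was nearly level there, at 102 on the vehicle array and 100.2 and 85.2 on the GW4064 arrays (log2 change -0.12).

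Genes lower in Fxr+/+ and higher under the Fxr-/- label had differences of -2.07 for Moxd1, -2.00 for Elovl3, -1.33 for the gluconeogenic Pck1 and -1.13 for C8b. Pck1 read 186 on the vehicle array and 280.4 and 356 on the GW4064 arrays, and Elovl3 160.4 on the vehicle array and 186 and 361 on the GW4064 arrays. Moxd1 was within the background on all 3 of these arrays.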

How the results depend on the processing

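The count of genes past the threshold in Fxr+/+, 2 as reported, was 2 with an added quantile normalization, with median centring, with an offset of 100 and with the mean of a gene's probes, and 3 with a filter at the 70th percentile. It was 0 with an offset of 1, without moderation of the variance and with only the 4 Fxr+/+ arrays, 1 with every kept probe tested, 5 with no filter on dim probes and 6 with limma-trend. With no filter the 5 were Fndc5, Gp2, Klhl11, Mypn and Olfr228, and neither Cyp2b13 nor Cyp7a1 passed. With 1 array left out it lay between 0 and 2, and Slc51b passed without GW4064 replicate 2. The labels do not say that a replicate number marks a shared batch or animal. Deviations of same-numbered Fxr+/+ arrays from their group means correlated at 0.24 over genes. Those of the Fxr-/- GW4064 arrays correlated at 0.23 with the Fxr+/+ GW4064 deviations and at 0.38 with the Fxr+/+ vehicle deviations. The replicate block gave 5 genes, adding Cyp2b9, Gpx2 and Gstm3.

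Genes whose difference between the genotype labels passed numbered 0 as reported, 5 with an offset of 1 and 324 with no filter, and 0 with each array left out in turn where that fit could be made. The count of genes without overlap of the groups, 3257, was 2079 with the stricter filter, which tests fewer genes, and between 5765 and 7241 with 1 Fxr+/+ array left out, where a group has 1 array. The cause of the other moves was not tested. No named gene turned its direction in 1302 values, each read through its brightest kept probe or the mean of its probes. This is no test of the directions. The groups of every named gene do not overlap, so leaving out 1 Fxr+/+ array could not turn a sign. Filters, variance models and the replicate block leave the log2 change of a probe as it is. Single other probes of Cabyr and Cux2 had the opposite sign (0.072 and -0.27). With 1 Fxr+/+ array left out the median lay on both sides of 0 for 15 of 39 lists, among them fat synthesis, glucose, conjugation, regulators, macrophages and neutrophils. Signal close to the background limits what the sizes of changes of dim genes can show.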
